A study of Mus musculus with 12 samples.

Results

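Axon guidance ligands and receptors were followed in mouse spinal cord 14 days after injury. They are the genes with a symbol of the semaphorin classes 3 to 7 (Sema), plexin (Plxn), neuropilin (Nrp), ephrin (Efna, Efnb), Eph receptor (Epha, Ephb), Slit or Robo families and at least 20 counts over all libraries. Of 37991 genes in the count table, 61 carried such a symbol and 60 met the minimum, with Efna4 the lowest member at 108 counts and a second identifier named Efna5 outside it at 0 counts. The members were 7 class 3 semaphorins, 13 semaphorins of classes 4 to 7, 11 plexins and neuropilins, 8 ephrins, 14 Eph receptors and 7 Slits and Robos.

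RNA came from 12 adult C57bl/6J mice older than 8 weeks, all of the genotype Glast-CreERT2 x R26R-YFP x Rasless, in 3 groups of 4. The SCI Tam group held lesions of mice given 2 mg tamoxifen a day for 5 days, then hemisected dorsally after 7 clearing days and collected 14 days later. The SCI Veh group held lesions of mice treated in the same way with solvent alone, and the uninjured group held spinal cord segments of mice whose label also gives vehicle. In Glast-CreERT2 mice, tamoxifen activates Cre in cells that use the Glast (Slc1a3) promoter, which here serves to reach type A pericytes and is also known to be active in astrocytes. Rasless mice lack Hras and Nras in every cell, so all 3 groups share these deletions. The submitters described the vehicle lesions as having a full pericyte-derived scar and the tamoxifen lesions as having an attenuated one, a description that itself implies lower amounts of scar transcripts. Whole tissue pieces were sequenced, so fewer cells of a type and less RNA per cell cannot be told apart.

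Guidance cues steer the tip of a growing axon by attraction or repulsion. Class 3 semaphorins are secreted and bind neuropilins, which signal through plexins, while the other vertebrate semaphorins are bound to membranes and bind plexins directly. Ephrins on one cell activate Eph receptor tyrosine kinases on its neighbour, and Slits are secreted ligands of Robo receptors. In injured spinal cord, semaphorins of scar fibroblasts and ephrins of myelin and glia are known as obstacles to regrowing axons, and several of these genes also shape blood vessels.

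Library totals lay between 7967970 and 12581324 counts, and 59 members passed the filter on low counts that left 16473 genes to test. Levels are given as CPM (counts scaled to a common library size) after TMM scaling, and changes as log2 values from an edgeR quasi-likelihood fit whose p-values were adjusted by the Benjamini-Hochberg method over all genes tested. Each member was called higher or lower at an adjusted p under 0.05. Values per library are listed in the order of mouse numbers, which is 452, 513, 549 and 564 for SCI Tam, 402, 428, 429 and 457 for SCI Veh, and 376, 377, 385 and 467 for uninjured cord. The labels do not say how RNA extraction or sequencing was batched. Libraries 513, 549 and 564 carry sample names 106 to 108, while library 452 and the other groups carry names between 1 and 20. All 4 SCI Tam mice were female by Xist and Y-linked genes, against 1 of 4 SCI Veh mice and 3 of 4 uninjured mice. A skeletal muscle score, the mean log2 CPM of 7 muscle genes, exceeded 2 in no tamoxifen library, in 402, 429 and 457 of the vehicle lesions and in 377 and 385 of the uninjured cords.

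Marker genes of other cells moved with the groups. The summed level of 6 fibroblast markers ran between 424 and 908 CPM in tamoxifen lesions, between 2705 and 7882 CPM in vehicle lesions and between 93.1 and 438 CPM in uninjured cord, and all 6 were lower in SCI Tam than in SCI Veh. For 10 neuronal markers the sums were 4594 to 5468 CPM in tamoxifen lesions, 4061 to 4912 CPM in vehicle lesions and 6310 to 6746 CPM in uninjured cord, and all 10 were lower in SCI Veh than in uninjured cord. For 7 markers of microglia and macrophages they were 571 to 911 CPM in tamoxifen lesions, 712 to 1278 CPM in vehicle lesions and 183 to 228 CPM in uninjured cord. Among the mural cell markers, the pericyte gene Pdgfrb averaged 40.2 ± 4.88 CPM in tamoxifen lesions, 82.6 ± 11.6 CPM in vehicle lesions and 40.7 ± 5.51 CPM in uninjured cord. It was the 1 of 5 mural markers called between the lesions, where the median log2 change of the 5 was 0.009. The others stood there at 0.009 for Rgs5, 0.009 for Kcnj8, 0.17 for Abcc9 and -0.59 (adjusted p = 0.0636) for Cspg4. The neuronal, oligodendrocyte and astrocyte lists were detected at high levels in every group, and no gene of any marker list was at 0 in all libraries. The part of these cell types in the results below was not tested. Marker calls between the lesions are subject to the limits of SCI Tam against SCI Veh given below for the members.

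Vehicle lesions differed from uninjured cord in 37 of the 59 members tested. Of these, 16 were higher (27.1%), against 26.7% of all genes tested, and 21 were lower (35.6%), against 24.1% of all genes. The rises were led by Plxnd1, Epha3, Plxnb2 and Nrp1, all receptors, and the falls by Epha6, Slit1 and Efna5. The median log2 change over the members was -0.20, beside 0.02 over all genes. Tamoxifen lesions differed from vehicle lesions in 11 members. There, 10 were lower (16.9%), against 8.33% of all genes, and 1 was higher (1.69%), against 7.79% of all genes, with a median log2 change of -0.18 beside 0.00 over all genes. Set against uninjured cord, tamoxifen lesions had 5 members higher (8.47%), against 26.3% of all genes, and 25 lower (42.4%), against 22.7% of all genes, with a median log2 change of -0.28 beside 0.01 over all genes. Each pair of comparisons shares a group of 4 libraries, so their counts are not independent of each other.

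**Figure D1:**
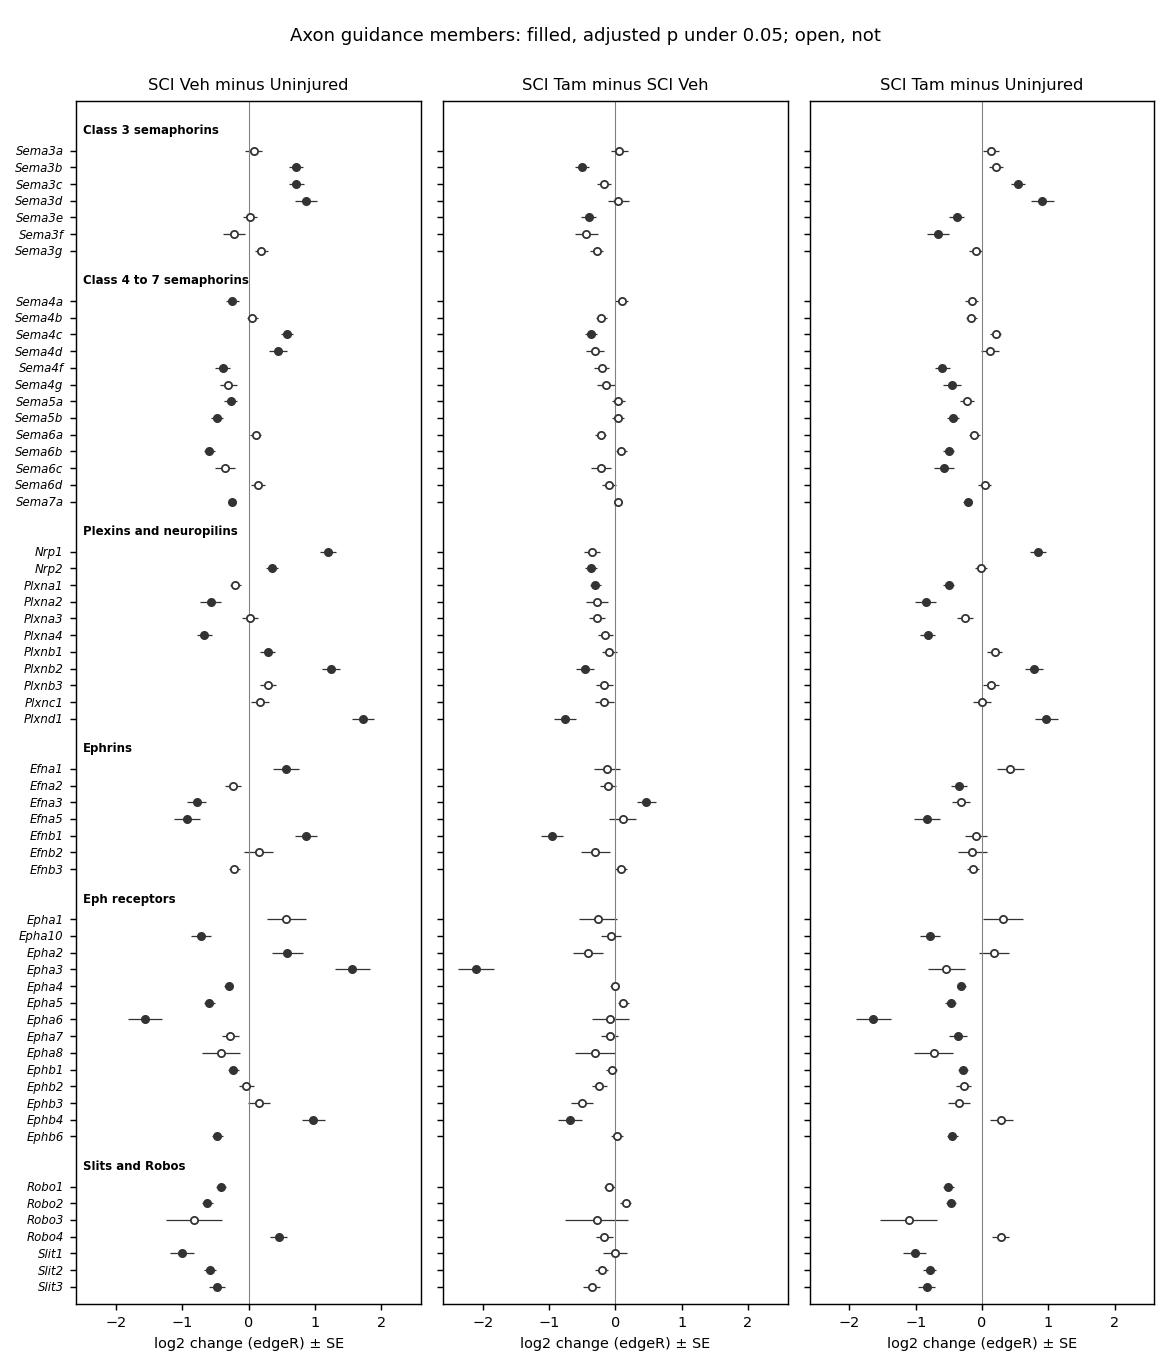
Log2 change of each of the 59 tested members, by family, in SCI Veh minus Uninjured, SCI Tam minus SCI Veh and SCI Tam minus Uninjured; bars are the standard error and filled points passed an adjusted p under 0.05. Plxnd1 and Epha3 lie farthest to the right in SCI Veh minus Uninjured at 1.72 and 1.56, and Epha3 lies farthest to the left in SCI Tam minus SCI Veh at -2.10.

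The falls after tamoxifen were not called by edgeR once the sample name series was taken into account. With a term for that series, or with libraries 513, 549 and 564 left out, edgeR called 0 members lower, beside 40 of all genes with the term and 21 without those libraries. At an unadjusted p under 0.05, edgeR had 9 members lower with the term and 7 without those libraries. With the term, DESeq2 called 2 members lower, 1 of them Epha3, beside 253 of all genes. The 10 members called lower without the term all had a negative log2 change with it, and SCI Tam was then represented against SCI Veh by library 452 alone. Of these, 3 shrank by more than 1.5 times, Sema3e to -0.17 (adjusted p = 0.685), Plxna1 to -0.14 (adjusted p = 0.606) and Sema4c to -0.24 (adjusted p = 0.457). The other 7 stood with the term at -2.02 (adjusted p = 0.111) for Epha3, -0.96 (adjusted p = 0.164) for Plxnd1, -0.92 (adjusted p = 0.197) for Efnb1, -0.70 (adjusted p = 0.335) for Ephb4, -0.52 (adjusted p = 0.344) for Plxnb2, -0.46 (adjusted p = 0.274) for Sema3b and -0.35 (adjusted p = 0.343) for Nrp2. Library 452 lay below every vehicle library for 10 of the 10 members, and for 1157 of the 1372 genes called lower (84.3%), although it helped to make those calls. Without regard to calls it lay below every vehicle library for 22 of the 59 members tested (37.3%) and for 4383 of 16473 genes (26.6%). With a term for sex edgeR called 7 members lower, 6 of the 10 and Nrp1, beside 587 of all genes. The calls lost were Ephb4 at -0.78 (adjusted p = 0.0821), Plxna1 at -0.30 (adjusted p = 0.115), Sema3e at -0.35 (adjusted p = 0.16) and Sema4c at -0.43 (adjusted p = 0.052). With the skeletal muscle score as a covariate 1 member stayed lower, beside 51 of all genes. It was Epha3, with a log2 change of -1.64 (adjusted p = 0.0389). Leaving out the 5 libraries with raised muscle transcripts left 1 vehicle library. In edgeR the calls of members between the lesions and in SCI Veh against uninjured cord were then lost, like most calls over all genes. That loss is therefore not particular to the members. No member called between the lesions reversed its sign there. The log2 changes were -1.49 for Epha3, -0.94 for Efnb1, -0.51 for Ephb4 and -0.16 for Nrp2. Scaled by library totals alone, edgeR called 0 members higher (1 at an unadjusted p under 0.05) and 13 lower, among 1049 higher and 1622 lower genes, compared with 1283 and 1372 genes after TMM scaling. Every statement below that a member fell in SCI Tam relative to SCI Veh is subject to these values. In SCI Tam against uninjured cord, 6 of the 30 members called were called with the series term. Over all genes, 1244 were then higher and 707 lower, beside 4328 and 3735 without the term.

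The level of each member per transcript length is given by the authors' FPKM (fragments per kilobase of transcript, scaled by depth). Efnb3 stood first in uninjured cord at 92.5 ± 4.61 FPKM (SD, n = 4), and its level was 88.7 ± 8.05 FPKM in tamoxifen lesions and 80.4 ± 7.10 FPKM in vehicle lesions. It was followed in uninjured cord by Sema7a at 43.8 ± 1.56, Sema4d at 37.3 ± 7.44 and Sema6d at 35.1 ± 1.73 FPKM, and Sema7a and Sema6d lay within 1 SD of the Sema4d mean. Among receptors, Plxnb1 at 26.2 ± 1.57 FPKM and Ephb1 at 25.8 ± 2.26 FPKM had the highest levels in uninjured cord and did not differ beyond their spread. Plxnb2 stood at 26.7 ± 4.09 FPKM in tamoxifen lesions, 36.1 ± 7.13 FPKM in vehicle lesions and 13.9 ± 1.49 FPKM in uninjured cord. The lowest mean levels in uninjured cord belonged to Robo3, Epha1 and Efna4, each below 1 FPKM. Epha3, the member that moved most between the lesions, was also among the low ones, at 0.426 ± 0.146 FPKM in tamoxifen lesions, 1.77 ± 0.612 FPKM in vehicle lesions and 0.595 ± 0.116 FPKM in uninjured cord.

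**Figure D2:**
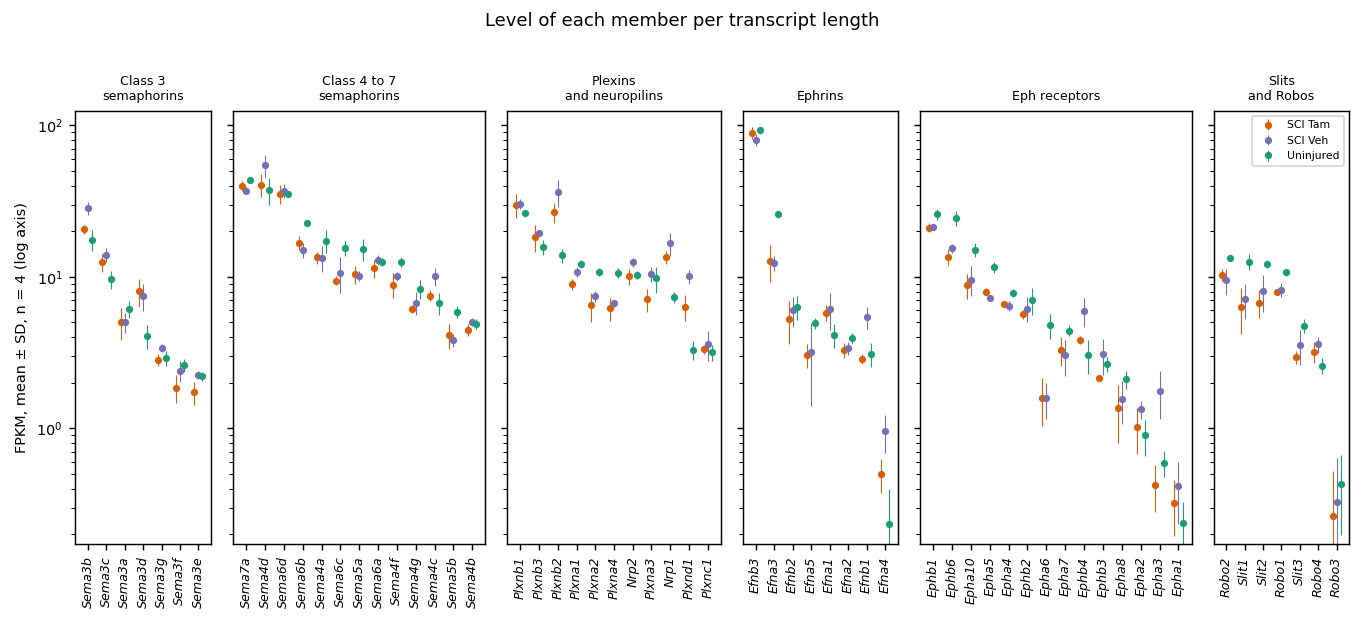
Mean FPKM of all 60 members by family on a log axis, with SD over 4 libraries, in tamoxifen lesions, vehicle lesions and uninjured cord (left to right within a gene). The ephrin Efnb3 lies at the top at 92.5 FPKM in uninjured cord, and Efna4, Epha1 and Robo3 lie at the bottom.

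Class 3 semaphorins, the secreted repellents of the family, rose or did not pass the test in vehicle lesions. Sema3b, Sema3c and Sema3d were higher than in uninjured cord (42.9%, against 26.7% of all genes). None of the 7 was lower, against 24.1% of all genes. Whether this or any family below differed from the shares of all genes was not tested. In SCI Tam, Sema3b and Sema3e were lower than in SCI Veh. Sema3c and Sema3d were higher, and Sema3e and Sema3f lower, in tamoxifen lesions than in uninjured cord. Sema3a, the best-known repellent of the class, passed no test.

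Sema3b (ENSMUSG00000057969), which binds neuropilins, measured 77.2, 67.5, 75.9 and 79.6 CPM in tamoxifen lesions, 107, 114, 92.4 and 112 CPM in vehicle lesions and 75.9, 68.8, 62.5 and 52.9 CPM in uninjured cord. The vehicle libraries lay above all 8 others, and the other groups overlapped. It differed on the log2 scale by 0.71 ± 0.10 (SE; adjusted p = 0.000119) in SCI Veh against uninjured cord and -0.50 ± 0.10 (SE; adjusted p = 0.00847) in SCI Tam against SCI Veh. Sema3c (ENSMUSG00000028780), a ligand of both neuropilins that also acts on vessels, measured 67.5, 71.9, 75.9 and 87.2 CPM in tamoxifen lesions, 77.2, 71.5, 94.9 and 97.5 CPM in vehicle lesions and 51.4, 48.4, 50.4 and 57.4 CPM in uninjured cord. Both kinds of lesion lay above uninjured cord without overlap and overlapped each other. Fitted log2 changes were 0.54 ± 0.11 (SE; adjusted p = 0.00143) in tamoxifen lesions and 0.72 ± 0.11 (SE; adjusted p = 0.000162) in vehicle lesions, each against uninjured cord. Sema3d (ENSMUSG00000040254), another neuropilin ligand, measured 54.5, 57.8, 75.6 and 47.9 CPM in tamoxifen lesions, 59.5, 46.3, 72.6 and 49.8 CPM in vehicle lesions and 38.8, 29.2, 26.8 and 30.9 CPM in uninjured cord. It stood almost equally high in both kinds of lesion, and lowest in the uninjured libraries. The log2 change of Sema3d against uninjured cord was 0.91 ± 0.17 (SE; adjusted p = 0.00089) in tamoxifen lesions and 0.87 ± 0.17 (SE; adjusted p = 0.000981) in vehicle lesions.

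Sema3e (ENSMUSG00000063531), which binds Plxnd1 without a neuropilin, measured 15.3, 11.7, 11.2 and 14.1 CPM in tamoxifen lesions, 17.5, 18.4, 17.6 and 15.4 CPM in vehicle lesions and 15.8, 16.4, 17.0 and 18.7 CPM in uninjured cord. Tamoxifen libraries lay below all others, and vehicle and uninjured libraries overlapped. Its log2 change was -0.40 ± 0.11 (SE; adjusted p = 0.0315) against vehicle lesions, a call lost when library 513, 549, 402, 428 or 429 was left out (adjusted p between 0.0654 and 0.0928), and -0.38 ± 0.11 (SE; adjusted p = 0.0136) against uninjured cord. Sema3f (ENSMUSG00000034684), a ligand that prefers Nrp2, measured 10.1, 7.64, 5.55 and 7.53 CPM in tamoxifen lesions, 9.94, 9.51, 8.91 and 12.9 CPM in vehicle lesions and 11.4, 12.2, 11.6 and 13.2 CPM in uninjured cord. Tamoxifen libraries lay below every uninjured library, with a log2 change of -0.66 ± 0.17 (SE; adjusted p = 0.00608), and overlapped the vehicle libraries. For Sema3a (ENSMUSG00000028883), the values were 25.9, 31.9, 37.6 and 27.7 CPM in tamoxifen lesions, 27.8, 24.4, 33.1 and 32.7 CPM in vehicle lesions and 25.0, 29.0, 29.7 and 28.6 CPM in uninjured cord. All groups overlapped, and the log2 change was 0.07 ± 0.13 (SE; adjusted p = 0.652) in SCI Veh against uninjured cord and 0.06 ± 0.13 (SE; adjusted p = 0.777) in SCI Tam against SCI Veh. Sema3g, a Nrp2 ligand known from endothelium, averaged 14.6 ± 1.21 CPM in tamoxifen lesions, 17.8 ± 1.06 CPM in vehicle lesions and 15.6 ± 1.57 CPM in uninjured cord and passed no test.

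Semaphorins of classes 4 to 7, which are held at the cell surface, were divided between falls, rises and no call. In SCI Veh, 6 of 13 were lower than in uninjured cord (Sema4a, Sema4f, Sema5a, Sema5b, Sema6b and Sema7a) and 2 were higher (Sema4c and Sema4d). The shares were 46.2% and 15.4%, against 24.1% and 26.7% of all genes. In SCI Tam, 6 were lower than in uninjured cord (Sema4f, Sema4g, Sema5b, Sema6b, Sema6c and Sema7a) and none was higher. Of all genes, 22.7% were lower and 26.3% higher there. Between the lesions, Sema4c was the 1 of 13 called, and it was lower in SCI Tam (7.69%, against 8.33% of all genes).

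Sema4c (ENSMUSG00000026121), a ligand of Plxnb2, measured 35.4, 29.9, 35.3 and 28.6 CPM in tamoxifen lesions, 41.4, 38.0, 43.9 and 43.4 CPM in vehicle lesions and 25.6, 28.8, 30.2 and 27.3 CPM in uninjured cord. Vehicle libraries lay above all 8 others. Fitted log2 changes were 0.57 ± 0.09 (SE; adjusted p = 0.000177) in SCI Veh against uninjured cord and -0.37 ± 0.09 (SE; adjusted p = 0.0161) in SCI Tam against SCI Veh, the second being lost when library 513 was left out (adjusted p 0.0551). Sema4d (ENSMUSG00000021451), a ligand of Plxnb1 known from oligodendrocytes, measured 202, 167, 193 and 131 CPM in tamoxifen lesions, 234, 200.2, 241 and 186 CPM in vehicle lesions and 155, 149.7, 142 and 189 CPM in uninjured cord. The highest uninjured library, 467, overlapped the vehicle libraries. In SCI Veh against uninjured cord, the log2 change of Sema4d was 0.44 ± 0.14 (SE; adjusted p = 0.016), a call lost when library 402, 429 or 385 was left out (adjusted p between 0.0544 and 0.0673). In SCI Tam against SCI Veh it was -0.31 ± 0.14 (SE; adjusted p = 0.124).

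Sema6b (ENSMUSG00000001227), a ligand of Plxna4, measured 74.4, 67.1, 66.8 and 79.7 CPM in tamoxifen lesions, 73.8, 72.0, 57.7 and 66.9 CPM in vehicle lesions and 106, 101, 104 and 96.9 CPM in uninjured cord. All 8 lesion libraries lay below all uninjured libraries, and the lesions overlapped each other. Against uninjured cord its log2 change was -0.50 ± 0.08 (SE; adjusted p = 0.000384) in tamoxifen lesions and -0.59 ± 0.08 (SE; adjusted p = 8.09e-05) in vehicle lesions. Sema5b (ENSMUSG00000052133), a semaphorin with thrombospondin repeats, measured 14.4, 14.9, 16.6 and 13.5 CPM in tamoxifen lesions, 15.2, 13.9, 14.5 and 14.3 CPM in vehicle lesions and 18.7, 18.6, 21.6 and 21.4 CPM in uninjured cord. Its lesion libraries likewise lay below all uninjured ones and overlapped each other, with log2 changes of -0.43 ± 0.09 (SE; adjusted p = 0.00163) in tamoxifen lesions and -0.47 ± 0.09 (SE; adjusted p = 0.00074) in vehicle lesions. Sema7a (ENSMUSG00000038264), a semaphorin anchored by a lipid that binds Plxnc1 and integrins, measured 151, 161, 143 and 135 CPM in tamoxifen lesions, 149, 142, 150.0 and 133 CPM in vehicle lesions and 177, 171, 169 and 168 CPM in uninjured cord. Its uninjured libraries lay within a narrow range above every lesion library, and its log2 change was -0.22 ± 0.06 (SE; adjusted p = 0.0115) in tamoxifen lesions and -0.26 ± 0.06 (SE; adjusted p = 0.00402) in vehicle lesions.

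Sema4f (ENSMUSG00000000627) measured 43.1, 35.8, 34.0 and 47.6 CPM in tamoxifen lesions, 52.9, 44.2, 40.4 and 47.5 CPM in vehicle lesions and 62.2, 61.5, 64.0 and 55.0 CPM in uninjured cord. Its log2 change against uninjured cord was -0.60 ± 0.11 (SE; adjusted p = 0.000894) in tamoxifen lesions and -0.39 ± 0.11 (SE; adjusted p = 0.00996) in vehicle lesions, with no overlap of lesions and uninjured cord. Sema5a, the other thrombospondin-repeat member, averaged 129 ± 18.2 CPM in tamoxifen lesions, 125 ± 9.18 CPM in vehicle lesions and 151 ± 16.4 CPM in uninjured cord. Its call in SCI Veh, at a log2 change of -0.27 ± 0.10 (SE; adjusted p = 0.0408), was lost when library 402, 429, 376 or 467 was left out (adjusted p between 0.078 and 0.129). Sema4a averaged 39.1 ± 3.41 CPM in tamoxifen lesions, 36.6 ± 3.92 CPM in vehicle lesions and 43.4 ± 4.28 CPM in uninjured cord, and its log2 change of -0.25 ± 0.10 (SE; adjusted p = 0.0488) in SCI Veh lost its call when library 549, 564, 402, 428, 457, 376, 377 or 467 was left out (adjusted p between 0.0529 and 0.144). Sema6c averaged 23.2 ± 2.88 CPM in tamoxifen lesions, 27.0 ± 5.97 CPM in vehicle lesions and 34.5 ± 3.64 CPM in uninjured cord, and Sema4g averaged 33.3 ± 2.29 CPM in tamoxifen lesions, 36.7 ± 6.42 CPM in vehicle lesions and 45.4 ± 6.96 CPM in uninjured cord. Sema6c and Sema4g were called in SCI Tam against uninjured cord alone, at log2 changes of -0.58 ± 0.15 (SE; adjusted p = 0.00699) and -0.45 ± 0.13 (SE; adjusted p = 0.0125), while -0.22 and -0.14 in SCI Tam against SCI Veh did not pass. Sema4b, Sema6a and Sema6d passed no test. Sema4b averaged 19.0 ± 1.36 CPM in tamoxifen lesions, 22.1 ± 1.48 CPM in vehicle lesions and 21.2 ± 1.14 CPM in uninjured cord, and Sema6a, a ligand of Plxna2 and Plxna4, averaged 67.3 ± 9.20 CPM in tamoxifen lesions, 78.5 ± 3.89 CPM in vehicle lesions and 72.9 ± 3.72 CPM in uninjured cord. Sema6d, a Plxna1 ligand, averaged 245 ± 37.3 CPM in tamoxifen lesions, 262 ± 25.6 CPM in vehicle lesions and 238 ± 10.3 CPM in uninjured cord, the highest CPM of these.

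Plexins and neuropilins, the receptors of the semaphorins, changed in both directions in vehicle lesions. Both neuropilins, Plxnb1, Plxnb2 and Plxnd1 were higher than in uninjured cord, and Plxna2 and Plxna4 were lower. In SCI Tam against SCI Veh, all 11 had a negative log2 change, beside 8222 of the 16473 genes tested. Of the 11, 4 passed the test, Nrp2, Plxna1, Plxnb2 and Plxnd1 (36.4%, against 8.33% of all genes called lower). Nrp1, Plxnb2 and Plxnd1 were higher, and Plxna1, Plxna2 and Plxna4 lower, in tamoxifen lesions than in uninjured cord.

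Plxnd1 (ENSMUSG00000030123), the receptor of Sema3e known for its part in vessel patterning, measured 42.8, 49.3, 64.8 and 39.5 CPM in tamoxifen lesions, 86.7, 64.8, 92.1 and 88.0 CPM in vehicle lesions and 29.8, 26.8, 24.7 and 19.4 CPM in uninjured cord. Uninjured libraries were lowest, vehicle libraries highest and tamoxifen libraries between them, and the highest tamoxifen library, 549, nearly met the lowest vehicle library, 428. edgeR put the log2 change of Plxnd1 at 1.72 ± 0.17 (SE; adjusted p = 9.69e-06) in SCI Veh against uninjured cord, -0.76 ± 0.16 (SE; adjusted p = 0.0111) in SCI Tam against SCI Veh and 0.97 ± 0.17 (SE; adjusted p = 0.000645) in SCI Tam against uninjured cord. With the series term its change between the lesions was -0.96 (adjusted p = 0.164). Plxnb2 (ENSMUSG00000036606), a receptor of Sema4c and Sema4g, measured 167, 176, 211 and 143 CPM in tamoxifen lesions, 270.0, 196, 289 and 200.4 CPM in vehicle lesions and 107, 104, 99.5 and 93.7 CPM in uninjured cord. All lesion libraries lay above uninjured cord, and the lesions overlapped each other. On the log2 scale Plxnb2 differed by 0.79 ± 0.14 (SE; adjusted p = 0.000634) in SCI Tam and 1.24 ± 0.14 (SE; adjusted p = 2.03e-05) in SCI Veh against uninjured cord. Between the lesions it was -0.46 ± 0.14 (SE; adjusted p = 0.0404), a call lost when library 452, 513, 564, 402, 429, 377 or 385 was left out (adjusted p between 0.0508 and 0.117).

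Nrp1 (ENSMUSG00000025810), the coreceptor of Sema3a that also binds VEGF, measured 96.8, 91.5, 94.2 and 73.8 CPM in tamoxifen lesions, 115, 89.8, 138 and 113 CPM in vehicle lesions and 51.3, 54.1, 48.3 and 45.4 CPM in uninjured cord. Lesions of both kinds lay above uninjured cord and overlapped each other. For Nrp1 the log2 change came to 0.84 ± 0.12 (SE; adjusted p = 0.000191) in SCI Tam and 1.20 ± 0.12 (SE; adjusted p = 1.14e-05) in SCI Veh against uninjured cord. At -0.36 ± 0.12 (SE; adjusted p = 0.0571), the difference between the lesions missed the threshold, and it passed with a term for sex at -0.56 (adjusted p = 0.0343) and when library 452 or 428 was left out (adjusted p between 0.0156 and 0.0373). Nrp2 (ENSMUSG00000025969), the coreceptor of Sema3f, measured 65.3, 60.9, 75.7 and 56.8 CPM in tamoxifen lesions, 84.8, 72.2, 87.8 and 88.6 CPM in vehicle lesions and 65.1, 66.7, 70.2 and 59.6 CPM in uninjured cord. Vehicle libraries lay above uninjured ones, tamoxifen library 549 lay within the vehicle range, and tamoxifen and uninjured libraries overlapped. It differed on the log2 scale by 0.35 ± 0.09 (SE; adjusted p = 0.00693) in SCI Veh against uninjured cord and -0.37 ± 0.09 (SE; adjusted p = 0.0213) between the lesions, the second call being lost when library 513, 564, 429 or 457 was left out (adjusted p between 0.051 and 0.0669).

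Plxna1 (ENSMUSG00000030084), a signalling partner of Nrp1, measured 85.8, 70.7, 82.6 and 69.0 CPM in tamoxifen lesions, 95.1, 89.0, 91.0 and 104 CPM in vehicle lesions and 103, 112, 116 and 105 CPM in uninjured cord. Tamoxifen libraries lay below all others. The log2 change of Plxna1 was -0.50 ± 0.08 (SE; adjusted p = 0.00034) in SCI Tam against uninjured cord, -0.20 ± 0.08 (SE; adjusted p = 0.0502) in SCI Veh against uninjured cord and -0.30 ± 0.08 (SE; adjusted p = 0.0251) between the lesions. The change in SCI Veh would pass when library 452, 513, 549, 564 or 457 was left out (adjusted p between 0.0166 and 0.0494), and the call between the lesions was lost when library 513, 564 or 457 was left out (adjusted p between 0.0653 and 0.0793). Plxna4 (ENSMUSG00000029765), a receptor of Sema6a and Sema6b and a partner of neuropilins, measured 113, 75.7, 76.0 and 88.3 CPM in tamoxifen lesions, 92.9, 97.5, 95.1 and 105 CPM in vehicle lesions and 149, 155, 171 and 147 CPM in uninjured cord. All lesion libraries lay below uninjured cord, with tamoxifen library 452 the highest of them. Its log2 change was -0.82 ± 0.11 (SE; adjusted p = 0.000131) in tamoxifen lesions and -0.67 ± 0.11 (SE; adjusted p = 0.0003) in vehicle lesions. Plxna2 (ENSMUSG00000026640), another receptor of Sema6a, measured 105, 70.1, 53.9 and 87.8 CPM in tamoxifen lesions, 104, 95.7, 79.7 and 104 CPM in vehicle lesions and 151, 145, 137 and 137 CPM in uninjured cord. The tamoxifen libraries of Plxna2 were the most spread, and its log2 change was -0.85 ± 0.16 (SE; adjusted p = 0.000945) in SCI Tam and -0.57 ± 0.16 (SE; adjusted p = 0.00879) in SCI Veh against uninjured cord. Plxnb1, the receptor of Sema4d, averaged 279 ± 52.8 CPM in tamoxifen lesions, 297 ± 18.7 CPM in vehicle lesions and 244 ± 12.4 CPM in uninjured cord. Its log2 change in SCI Veh of 0.28 ± 0.11 (SE; adjusted p = 0.0489) lost its call when library 452, 513, 402, 428, 429, 457, 376, 377, 385 or 467 was left out (adjusted p between 0.0566 and 0.161). Plxna3, Plxnb3 and Plxnc1 passed no test. Plxna3, a partner of Nrp2, averaged 36.4 ± 3.33 CPM in tamoxifen lesions, 44.0 ± 5.38 CPM in vehicle lesions and 43.5 ± 6.47 CPM in uninjured cord. Plxnb3, a receptor of Sema5a, averaged 123 ± 25.8 CPM in tamoxifen lesions, 138 ± 4.22 CPM in vehicle lesions and 113 ± 12.3 CPM in uninjured cord, and Plxnc1, the receptor of Sema7a, averaged 27.4 ± 1.82 CPM in tamoxifen lesions, 30.7 ± 6.95 CPM in vehicle lesions and 27.4 ± 3.30 CPM in uninjured cord.

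**Figure D3:**
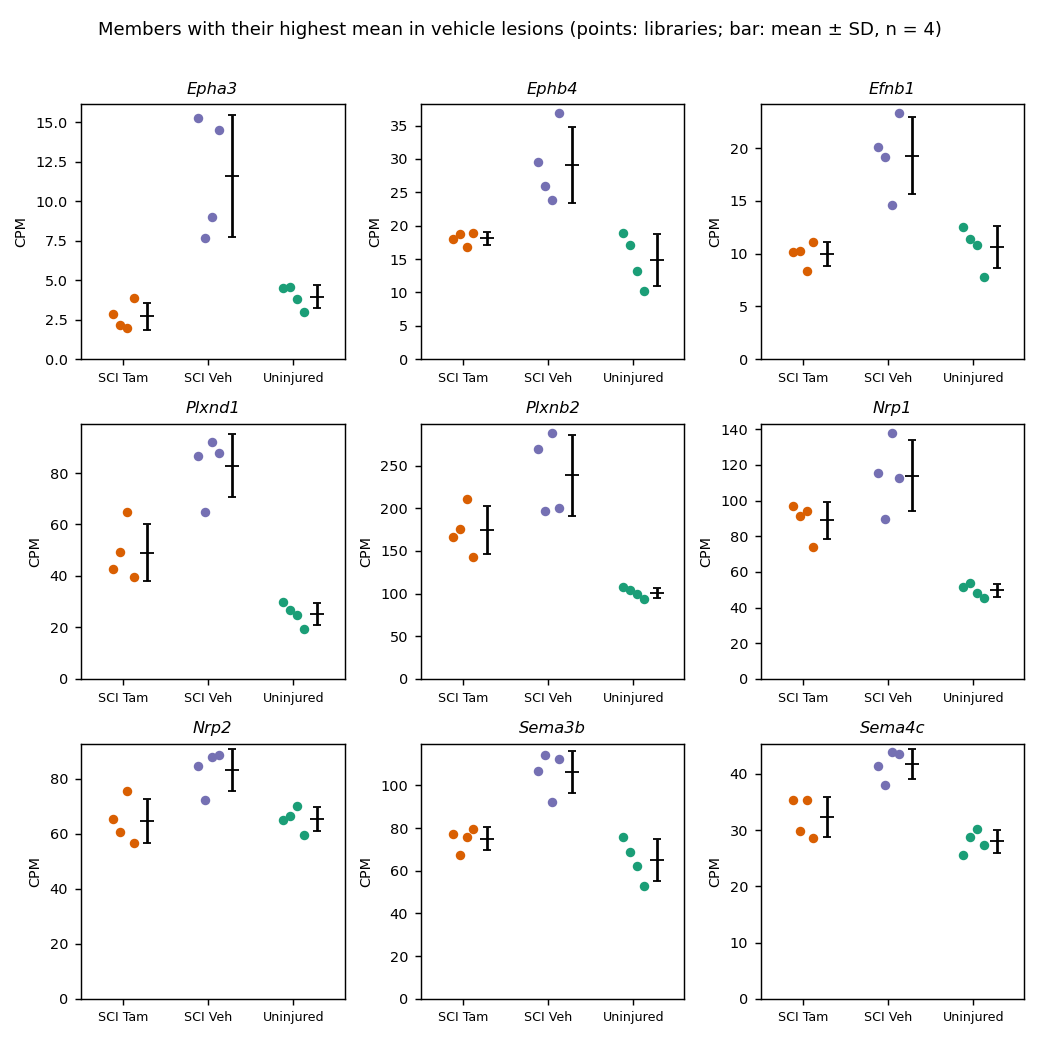
CPM in every library for 9 members whose mean was highest in vehicle lesions, with tamoxifen lesions, vehicle lesions and uninjured cord from left to right and the mean ± SD beside the points. Epha3, Ephb4, Efnb1, Plxnd1, Sema3b and Sema4c have no vehicle library as low as the highest tamoxifen library, whereas Plxnb2, Nrp1 and Nrp2 overlap.

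Ephrins of the B type, which span the membrane, and of the A type, which are anchored by a lipid, did not move as a group. Efnb1 and Efna1 were higher, and Efna3 and Efna5 lower, in vehicle lesions than in uninjured cord. Efnb1 was lower in SCI Tam than in SCI Veh, where Efna3 was the only member of all 59 called higher. Efna2 and Efna5 were lower in tamoxifen lesions than in uninjured cord. Efnb3, known from myelin, passed no test.

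Efnb1 (ENSMUSG00000031217), a ligand of EphB receptors, measured 10.2, 10.2, 8.32 and 11.1 CPM in tamoxifen lesions, 20.1, 19.1, 14.6 and 23.4 CPM in vehicle lesions and 12.5, 11.4, 10.8 and 7.81 CPM in uninjured cord. Vehicle libraries lay above all 8 others, and tamoxifen and uninjured libraries overlapped. Between groups, Efnb1 differed on the log2 scale by 0.86 ± 0.17 (SE; adjusted p = 0.000816) in SCI Veh against uninjured cord and -0.95 ± 0.17 (SE; adjusted p = 0.00461) between the lesions, which became -0.92 (adjusted p = 0.197) with the series term. Efna5 (ENSMUSG00000048915), a ligand of EphA receptors, measured 5.15, 3.45, 4.68 and 4.68 CPM in tamoxifen lesions, 4.92, 3.09, 3.21 and 5.25 CPM in vehicle lesions and 7.92, 8.48, 6.41 and 8.95 CPM in uninjured cord. All lesion libraries lay below uninjured cord, with log2 changes of -0.82 ± 0.20 (SE; adjusted p = 0.00418) in SCI Tam and -0.94 ± 0.20 (SE; adjusted p = 0.00162) in SCI Veh. Efnb3 (ENSMUSG00000003934), the Epha4 ligand that keeps corticospinal axons from crossing the midline, measured 366, 316, 303 and 276 CPM in tamoxifen lesions, 283, 323, 316 and 268 CPM in vehicle lesions and 346, 347, 325 and 364 CPM in uninjured cord. Its log2 change of -0.22 ± 0.09 (SE; adjusted p = 0.0544) in SCI Veh against uninjured cord missed the threshold although those groups did not overlap, and passed when library 452, 564, 428 or 429 was left out (adjusted p between 0.0168 and 0.0384). That between the lesions was 0.08 ± 0.09 (SE; adjusted p = 0.528).

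Efna3 (ENSMUSG00000028039), another EphA ligand, measured 18.9, 20.3, 14.8 and 26.4 CPM in tamoxifen lesions, 14.2, 16.1, 12.7 and 15.3 CPM in vehicle lesions and 26.2, 25.8, 24.2 and 24.2 CPM in uninjured cord. Vehicle libraries lay below uninjured cord without overlap, and tamoxifen libraries overlapped both groups. edgeR put the log2 change of Efna3 at -0.79 ± 0.14 (SE; adjusted p = 0.000615) in SCI Veh against uninjured cord and 0.47 ± 0.14 (SE; adjusted p = 0.0452) in SCI Tam against SCI Veh. The second call rests on the counts: in the authors' FPKM the change was 0.02 (adjusted p = 0.956) by limma on log2(FPKM + 0.1), with 12.8 ± 3.53 FPKM in tamoxifen lesions and 12.3 ± 1.43 FPKM in vehicle lesions. Efna3 was the only 1 of 58 members compared whose ratio of counts to FPKM was shifted in libraries 513, 549 and 564, beside 497 of 15259 genes. That call was also lost when library 513, 564, 402, 429, 457, 376, 377, 385 or 467 was left out (adjusted p between 0.0535 and 0.126). Efna1 (ENSMUSG00000027954), a ligand of Epha2, measured 10.7, 8.39, 8.85 and 7.62 CPM in tamoxifen lesions, 8.98, 6.54, 9.83 and 13.2 CPM in vehicle lesions and 6.54, 7.71, 6.85 and 5.18 CPM in uninjured cord, with overlap in each pair of groups. Its log2 change of 0.56 ± 0.20 (SE; adjusted p = 0.0308) in SCI Veh lost its call when library 429, 457, 376, 385 or 467 was left out (adjusted p between 0.056 and 0.131). Efna2 averaged 7.50 ± 0.642 CPM in tamoxifen lesions, 8.13 ± 0.902 CPM in vehicle lesions and 9.57 ± 0.842 CPM in uninjured cord, and its log2 change of -0.35 ± 0.12 (SE; adjusted p = 0.026) in SCI Tam against uninjured cord lost its call when library 513, 549 or 376 was left out (adjusted p between 0.0521 and 0.066). Efnb2, known from arteries, averaged 23.1 ± 6.82 CPM in tamoxifen lesions, 28.4 ± 6.06 CPM in vehicle lesions and 25.6 ± 4.77 CPM in uninjured cord and passed no test. Efna4 was left out by the filter and measured 0.599, 0.839, 0.520 and 0.918 CPM in tamoxifen lesions, 1.71, 0.864, 1.65 and 1.80 CPM in vehicle lesions and 0.689, 0.428, 0.0879 and 0.176 CPM in uninjured cord, and a fit with no filter gave it a log2 change of 2.15 (adjusted p = 0.00191) in SCI Veh against uninjured cord and -1.06 (adjusted p = 0.121) between the lesions.

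Eph receptors showed the largest single changes of the 59 members between the lesions and in the falls after injury. Epha3, Ephb4 and Epha2 were higher in vehicle lesions than in uninjured cord, and 6 were lower, Epha4, Epha5, Epha6, Epha10, Ephb1 and Ephb6. The shares were 21.4% and 42.9%, against 26.7% and 24.1% of all genes. In SCI Tam, Epha3 and Ephb4 were lower than in SCI Veh. Against uninjured cord, 7 were lower in tamoxifen lesions, the 6 just named and Epha7, and none was higher.

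Epha3 (ENSMUSG00000052504), an EphA receptor known in development and from mesenchymal cells, measured 2.88, 2.14, 1.99 and 3.86 CPM in tamoxifen lesions, 15.3, 7.65, 9.00 and 14.5 CPM in vehicle lesions and 4.48, 4.54, 3.78 and 2.98 CPM in uninjured cord. Vehicle libraries lay above all 8 others, and tamoxifen and uninjured libraries overlapped. On the log2 scale Epha3 differed by 1.56 ± 0.26 (SE; adjusted p = 0.00031) in SCI Veh against uninjured cord, -2.10 ± 0.27 (SE; adjusted p = 0.00106) in SCI Tam against SCI Veh and -0.54 ± 0.28 (SE; adjusted p = 0.135) in SCI Tam against uninjured cord. Its fall between the lesions was called in every fit that left out a single library, and was -2.02 (adjusted p = 0.111) with the series term. Ephb4 (ENSMUSG00000029710), the Efnb2 receptor that marks veins, measured 18.0, 18.8, 16.8 and 18.9 CPM in tamoxifen lesions, 29.6, 25.9, 23.9 and 36.8 CPM in vehicle lesions and 18.9, 17.1, 13.2 and 10.2 CPM in uninjured cord. It was also highest in vehicle lesions, with tamoxifen and uninjured libraries overlapping. The log2 change of Ephb4 was 0.98 ± 0.18 (SE; adjusted p = 0.000582) in SCI Veh against uninjured cord and -0.68 ± 0.17 (SE; adjusted p = 0.0224) between the lesions, the second call being lost when library 513, 564 or 457 was left out (adjusted p between 0.0514 and 0.0622). Epha2 measured 3.00, 3.73, 6.24 and 4.78 CPM in tamoxifen lesions, 6.62, 5.55, 5.33 and 6.19 CPM in vehicle lesions and 5.28, 3.94, 3.87 and 2.81 CPM in uninjured cord. Its log2 change of 0.58 ± 0.23 (SE; adjusted p = 0.0477) in SCI Veh lost its call when library 513, 564, 402, 428, 429, 457, 377, 385 or 467 was left out (adjusted p between 0.0536 and 0.136).

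Epha6 (ENSMUSG00000055540), a receptor known mainly from neurons, measured 8.63, 3.82, 3.38 and 6.25 CPM in tamoxifen lesions, 4.70, 6.91, 4.68 and 6.66 CPM in vehicle lesions and 15.9, 14.3, 21.7 and 15.9 CPM in uninjured cord. The highest lesion value, in tamoxifen library 452, stayed below the lowest uninjured one. For Epha6 the log2 change came to -1.64 ± 0.26 (SE; adjusted p = 0.000351) in SCI Tam and -1.56 ± 0.26 (SE; adjusted p = 0.000314) in SCI Veh against uninjured cord. Epha5 (ENSMUSG00000029245), likewise a neuronal receptor, measured 42.0, 38.4, 39.1 and 44.0 CPM in tamoxifen lesions, 35.5, 40.0, 34.2 and 40.8 CPM in vehicle lesions and 51.2, 55.6, 59.3 and 60.9 CPM in uninjured cord. Lesions and uninjured cord did not overlap, and its log2 change was -0.47 ± 0.08 (SE; adjusted p = 0.00049) in tamoxifen lesions and -0.59 ± 0.08 (SE; adjusted p = 7.28e-05) in vehicle lesions. Epha10 (ENSMUSG00000028876), which has no active kinase, measured 49.4, 37.6, 31.6 and 45.5 CPM in tamoxifen lesions, 37.2, 51.2, 34.1 and 49.0 CPM in vehicle lesions and 59.0, 76.2, 72.9 and 73.4 CPM in uninjured cord. Again the lesions lay below uninjured cord, with log2 changes of -0.78 ± 0.16 (SE; adjusted p = 0.00136) in SCI Tam and -0.72 ± 0.15 (SE; adjusted p = 0.00192) in SCI Veh.

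Epha4 (ENSMUSG00000026235), the receptor through which Efnb3 repels corticospinal axons, measured 49.7, 47.9, 45.4 and 46.4 CPM in tamoxifen lesions, 46.6, 46.8, 44.0 and 52.9 CPM in vehicle lesions and 57.7, 60.0, 62.9 and 54.3 CPM in uninjured cord. The uninjured libraries were highest, and the lesions overlapped each other closely. Between groups, Epha4 differed on the log2 scale by -0.31 ± 0.07 (SE; adjusted p = 0.00279) in SCI Tam and -0.30 ± 0.07 (SE; adjusted p = 0.00275) in SCI Veh against uninjured cord, and -0.01 ± 0.07 (SE; adjusted p = 0.95) between the lesions. Ephb6 (ENSMUSG00000029869), also without an active kinase, measured 65.4, 49.7, 52.0 and 61.4 CPM in tamoxifen lesions, 56.7, 58.6, 52.2 and 56.4 CPM in vehicle lesions and 80.9, 79.7, 71.3 and 79.5 CPM in uninjured cord, with log2 changes of -0.45 ± 0.09 (SE; adjusted p = 0.00104) in SCI Tam and -0.47 ± 0.09 (SE; adjusted p = 0.000533) in SCI Veh. Ephb1 (ENSMUSG00000032537) measured 116, 92.0, 103 and 102 CPM in tamoxifen lesions, 99.5, 112, 106 and 111 CPM in vehicle lesions and 123, 118, 122 and 141 CPM in uninjured cord. It differed on the log2 scale by -0.29 ± 0.08 (SE; adjusted p = 0.00845) in SCI Tam and -0.23 ± 0.08 (SE; adjusted p = 0.0246) in SCI Veh against uninjured cord, the second call being lost when library 402 or 467 was left out (adjusted p between 0.0609 and 0.0821). Ephb2 (ENSMUSG00000028664), a receptor of B ephrins, measured 26.7, 30.0, 32.8 and 31.9 CPM in tamoxifen lesions, 39.2, 28.6, 35.1 and 40.3 CPM in vehicle lesions and 39.7, 31.3, 39.0 and 37.3 CPM in uninjured cord. Its groups overlapped, and its log2 change was -0.28 ± 0.11 (SE; adjusted p = 0.0602) in SCI Tam against uninjured cord, called when library 428, 457 or 377 was left out (adjusted p between 0.0233 and 0.0481). Between the lesions it was -0.24 ± 0.11 (SE; adjusted p = 0.16), called when library 428 was left out (adjusted p 0.0471). Epha7 averaged 14.2 ± 2.18 CPM in tamoxifen lesions, 15.0 ± 2.15 CPM in vehicle lesions and 18.2 ± 1.58 CPM in uninjured cord, and its log2 change of -0.36 ± 0.13 (SE; adjusted p = 0.0345) in SCI Tam against uninjured cord lost its call when library 513, 549, 377 or 467 was left out (adjusted p between 0.0823 and 0.105). Epha1, Epha8 and Ephb3 passed no test. Epha1 averaged 1.67 ± 0.586 CPM in tamoxifen lesions, 1.99 ± 0.481 CPM in vehicle lesions and 1.33 ± 0.234 CPM in uninjured cord, and Epha8 averaged 7.48 ± 3.31 CPM in tamoxifen lesions, 9.17 ± 2.64 CPM in vehicle lesions and 12.2 ± 1.61 CPM in uninjured cord. Ephb3, a receptor of B ephrins, averaged 10.3 ± 0.391 CPM in tamoxifen lesions, 14.5 ± 4.27 CPM in vehicle lesions and 13.1 ± 1.36 CPM in uninjured cord, with tamoxifen libraries below all vehicle ones and a log2 change of -0.50 ± 0.17 (SE; adjusted p = 0.057) between the lesions.

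The promoters of Plxnd1, Efnb1, Ephb4 and Epha3 are shown because these are the members with the largest rises in SCI Veh that also fell in SCI Tam and have a single start in the RefSeq table. Each window runs from 250 bases before to 50 bases after the annotated start on GRCm38.p6, a later build than the mm9 of the deposited data, and such a window was found for 53 of the 60 members. Capitals mark motif matches on either strand, and no 2 motifs shared bases in these windows. The motifs searched were the GC box, spelled GGGCGG, the AP-1 motif, spelled TGANTCA, the CCAAT box, spelled as it is named, and the motif of TATA promoters, spelled TATAAA. The Plxnd1 window lies on the minus strand of chr6:115994956-115995255, that of Epha3 on the minus strand of chr16:63864126-63864425, that of Ephb4 on the plus strand of chr5:137349859-137350158 and that of Efnb1 on the plus strand of chrX:99135811-99136110.
Plxnd1: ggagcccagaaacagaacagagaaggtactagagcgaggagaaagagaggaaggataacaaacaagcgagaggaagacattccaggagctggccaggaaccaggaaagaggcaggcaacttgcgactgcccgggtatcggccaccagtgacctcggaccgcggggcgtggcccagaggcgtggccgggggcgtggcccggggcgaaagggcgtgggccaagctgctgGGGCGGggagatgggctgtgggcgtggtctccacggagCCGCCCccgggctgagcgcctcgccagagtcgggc
Epha3: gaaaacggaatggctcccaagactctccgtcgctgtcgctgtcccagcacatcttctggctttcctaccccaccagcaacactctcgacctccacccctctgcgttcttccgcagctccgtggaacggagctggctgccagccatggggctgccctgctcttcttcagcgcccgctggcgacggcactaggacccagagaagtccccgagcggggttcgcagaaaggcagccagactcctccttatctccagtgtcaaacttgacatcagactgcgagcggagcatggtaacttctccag
Ephb4: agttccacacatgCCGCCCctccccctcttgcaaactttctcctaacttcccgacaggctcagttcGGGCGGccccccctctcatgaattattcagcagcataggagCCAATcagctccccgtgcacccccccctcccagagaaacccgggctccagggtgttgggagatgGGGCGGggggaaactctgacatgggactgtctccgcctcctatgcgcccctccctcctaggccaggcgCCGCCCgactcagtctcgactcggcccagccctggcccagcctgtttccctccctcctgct
Efnb1: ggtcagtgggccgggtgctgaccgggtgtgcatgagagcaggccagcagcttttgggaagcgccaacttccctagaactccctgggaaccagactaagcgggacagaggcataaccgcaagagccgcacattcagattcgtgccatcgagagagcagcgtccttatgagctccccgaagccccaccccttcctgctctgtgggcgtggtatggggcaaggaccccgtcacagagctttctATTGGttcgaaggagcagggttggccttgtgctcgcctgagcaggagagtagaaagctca
The Plxnd1 window holds 2 GC boxes, the Ephb4 window 4 GC boxes and 1 CCAAT box, the Efnb1 window 1 CCAAT box and the Epha3 window none of the 4 motifs. Of the 32851 windows in the table, 35.7% hold a GC box, 7.81% an AP-1 motif, 37.4% a CCAAT box and 13.6% a TATA motif. The G and C content is 67.0% for Plxnd1, 60.7% for Epha3, 64.7% for Ephb4 and 59.7% for Efnb1, beside a median of 52.7% over all windows. The 4 windows therefore share a G and C content above that median and no motif of the 4 searched.

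Slits and their receptors Robo1 and Robo2 were lower in both kinds of lesion. All 3 Slits, Robo1 and Robo2 fell relative to uninjured cord in SCI Tam and in SCI Veh, and Robo4 was higher in SCI Veh. Those that fell were 71.4% of the family, against 22.7% of all genes in SCI Tam and 24.1% in SCI Veh. None of the 7 passed the test between the lesions, where their log2 changes ranged between -0.36 and 0.15. Of all genes, 7.79% were called higher and 8.33% lower there.

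Slit1 (ENSMUSG00000025020), a secreted repellent made mainly by neurons, measured 45.8, 23.5, 25.9 and 35.4 CPM in tamoxifen lesions, 31.7, 36.4, 27.2 and 35.7 CPM in vehicle lesions and 67.9, 58.2, 61.6 and 75.2 CPM in uninjured cord. Lesions and uninjured cord did not overlap, and tamoxifen library 452 was the highest of the lesions. The log2 change of Slit1 against uninjured cord was -1.02 ± 0.18 (SE; adjusted p = 0.000642) in tamoxifen lesions and -1.01 ± 0.18 (SE; adjusted p = 0.0005) in vehicle lesions. Slit2 (ENSMUSG00000031558), the midline repellent best known from commissural axons, measured 43.4, 44.1, 36.9 and 43.6 CPM in tamoxifen lesions, 49.9, 51.7, 39.8 and 52.8 CPM in vehicle lesions and 70.4, 69.5, 80.2 and 70.0 CPM in uninjured cord. All lesion libraries lay below all uninjured ones, with log2 changes of -0.79 ± 0.09 (SE; adjusted p = 6.66e-05) in SCI Tam and -0.58 ± 0.09 (SE; adjusted p = 0.00025) in SCI Veh. Between the lesions the log2 change of -0.21 ± 0.09 (SE; adjusted p = 0.144) was called when library 429 was left out (adjusted p 0.0407). Slit3 (ENSMUSG00000056427) measured 13.3, 14.0, 12.5 and 15.3 CPM in tamoxifen lesions, 18.7, 15.7, 14.5 and 21.6 CPM in vehicle lesions and 22.9, 24.2, 27.9 and 23.1 CPM in uninjured cord. Vehicle libraries stood between the tamoxifen and uninjured means, and the log2 change was -0.83 ± 0.12 (SE; adjusted p = 0.00024) in SCI Tam, -0.48 ± 0.12 (SE; adjusted p = 0.00612) in SCI Veh and -0.36 ± 0.13 (SE; adjusted p = 0.0707) between the lesions.

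Robo2 (ENSMUSG00000052516), a Slit receptor of axons, measured 74.4, 63.0, 71.6 and 78.2 CPM in tamoxifen lesions, 61.9, 70.0, 56.8 and 69.6 CPM in vehicle lesions and 99.4, 96.8, 103 and 98.7 CPM in uninjured cord. Uninjured libraries were highest and closely spaced. edgeR put the log2 change of Robo2 at -0.47 ± 0.08 (SE; adjusted p = 0.00047) in SCI Tam and -0.62 ± 0.08 (SE; adjusted p = 4.56e-05) in SCI Veh against uninjured cord. Robo1 (ENSMUSG00000022883), the other main Slit receptor of axons, measured 77.8, 68.6, 66.9 and 68.0 CPM in tamoxifen lesions, 65.0, 81.6, 71.9 and 80.7 CPM in vehicle lesions and 98.4, 106, 103 and 93.2 CPM in uninjured cord. All 8 lesion libraries lay below all uninjured ones and the lesions overlapped each other, with log2 changes of -0.51 ± 0.08 (SE; adjusted p = 0.000289) in SCI Tam and -0.42 ± 0.08 (SE; adjusted p = 0.00074) in SCI Veh. Robo4 (ENSMUSG00000032125), the Robo known from endothelium, measured 12.3, 12.6, 14.9 and 15.7 CPM in tamoxifen lesions, 16.1, 16.8, 12.7 and 17.0 CPM in vehicle lesions and 10.2, 12.4, 12.8 and 10.2 CPM in uninjured cord. Its groups overlapped in each pair, and its log2 change was 0.45 ± 0.13 (SE; adjusted p = 0.0105) in SCI Veh against uninjured cord. With a term for sex that edgeR call was lost, at 0.40 (adjusted p = 0.057). In the same comparison that term also removed the calls of Epha2 (adjusted p = 0.0654) and Sema4a (adjusted p = 0.0912), and Sema3g, Epha7 and Sema6c gained one. Robo3, known from commissural axons, averaged 0.699 ± 0.266 CPM in tamoxifen lesions, 0.810 ± 0.495 CPM in vehicle lesions and 1.46 ± 0.576 CPM in uninjured cord and passed no test.

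**Figure D4:**
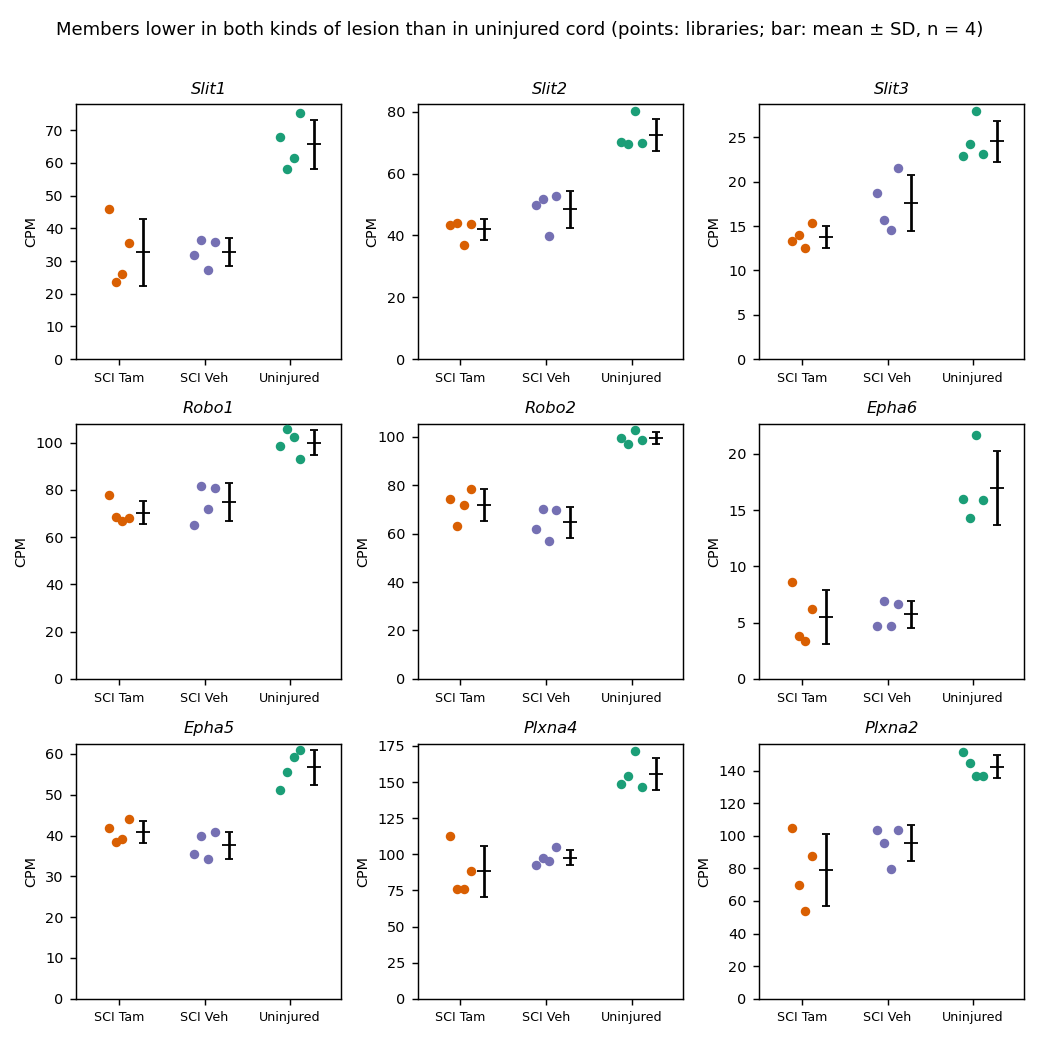
CPM in every library for 9 members that were lower in both kinds of lesion than in uninjured cord, with tamoxifen lesions, vehicle lesions and uninjured cord from left to right and the mean ± SD beside the points. In each panel the 4 uninjured libraries lie above all 8 lesion libraries, and the lesions overlap.

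Calls of tamoxifen lesions against uninjured cord also depended on the sample name series, over all genes as among the members. The series term left 1244 of all genes higher and 707 lower, beside 4328 and 3735 without it. With the series term, 2 members were higher in SCI Tam than in uninjured cord, Nrp1 at a log2 change of 0.96 (adjusted p = 0.00626) and Plxnb2 at 0.72 (adjusted p = 0.0479). With the same term 4 were lower, Slit2 at -0.74 (adjusted p = 0.012), Slit3 at -0.89 (adjusted p = 0.0232), Plxna4 at -0.46 (adjusted p = 0.0225) and Sema6b at -0.45 (adjusted p = 0.0475). Of the 30 members called without the term, 10 had a log2 change more than 1.5 times smaller with it. Plxna4 was 1 of these and kept its call. The other 9 lost theirs, Slit1 at -0.52 (adjusted p = 0.139), Epha6 at -0.97 (adjusted p = 0.0864), Epha10 at -0.51 (adjusted p = 0.181), Plxna2 at -0.44 (adjusted p = 0.182), Sema3f at -0.26 (adjusted p = 0.494), Ephb6 at -0.25 (adjusted p = 0.185), Sema3e at -0.15 (adjusted p = 0.602), Ephb1 at -0.11 (adjusted p = 0.532) and Epha7 at -0.11 (adjusted p = 0.758). The remaining 15 lost their call with a log2 change within 1.5 times of the value without the term. All vehicle and uninjured libraries belong to the sample names between 1 and 20. In SCI Veh against uninjured cord 15 members were higher and 23 lower with the term, beside 16 and 21 without it. Efnb3 at -0.22 and Plxna1 at -0.20 gained a call, and Plxnb1 at 0.285 lost its own (adjusted p = 0.0512), with log2 changes as without the term.

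Other genes of guidance were read from 3 lists. Of all genes tested, 26.7% were higher and 24.1% lower in SCI Veh against uninjured cord. The shares were 26.3% and 22.7% in SCI Tam against uninjured cord, and 7.79% and 8.33% in SCI Tam against SCI Veh. Whether any of the 3 lists differed from these shares was not tested. In the netrin and RGM system, 14 of 15 genes found were tested, of which 3 were higher and 7 lower in vehicle lesions than in uninjured cord, 2 higher and 7 lower in tamoxifen lesions, and 0 called between the lesions by edgeR or DESeq2, where 2 had an unadjusted p under 0.05 and the median log2 change was -0.07. The netrin Ntn1 averaged 59.1 ± 10.6 CPM in tamoxifen lesions, 75.7 ± 11.9 CPM in vehicle lesions and 42.5 ± 5.88 CPM in uninjured cord, with a log2 change of 0.83 (adjusted p = 0.000445) in SCI Veh against uninjured cord. Its attractive receptor Dcc averaged 5.55 ± 2.35 CPM in tamoxifen lesions, 6.89 ± 1.41 CPM in vehicle lesions and 16.6 ± 2.20 CPM in uninjured cord, with log2 changes of -1.60 (adjusted p = 0.000233) in SCI Tam and -1.27 (adjusted p = 0.000649) in SCI Veh. The repulsive netrin receptor Unc5a averaged 39.2 ± 4.39 CPM in tamoxifen lesions, 36.0 ± 4.27 CPM in vehicle lesions and 66.0 ± 3.48 CPM in uninjured cord, with log2 changes of -0.76 (adjusted p = 9.70e-05) in SCI Tam and -0.88 (adjusted p = 1.86e-05) in SCI Veh. Ntn1 was thus higher, and Dcc and Unc5a lower, in lesions than in uninjured cord. Other genes of the list differed from this. In SCI Veh against uninjured cord, edgeR gave Neo1 0.12 (adjusted p = 0.197), Ntn3 0.06 (adjusted p = 0.744) and Ntn4 -0.22 (adjusted p = 0.409). The netrin gene Ntng1 was lower there, at -1.90 (adjusted p = 0.00216).

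Coreceptors and modulators were 22 genes, of which 5 were higher and 4 lower in SCI Veh against uninjured cord, and 5 higher and 8 lower in SCI Tam against uninjured cord. Flrt2, a ligand of Unc5 receptors, and Ptprs, a receptor of chondroitin sulfate proteoglycans, were lower in SCI Tam than in SCI Veh, at log2 changes of -0.38 (adjusted p = 0.023) and -0.25 (adjusted p = 0.0151). The integrin subunit Itgb1, a partner of Sema7a, averaged 254 ± 40.4 CPM in tamoxifen lesions, 297 ± 35.7 CPM in vehicle lesions and 128 ± 9.01 CPM in uninjured cord. Fitted log2 changes were 0.99 (adjusted p = 5.76e-05) in SCI Tam and 1.22 (adjusted p = 7.48e-06) in SCI Veh against uninjured cord. Cd72, a Sema4d receptor of immune cells, averaged 6.99 ± 3.45 CPM in tamoxifen lesions, 11.9 ± 3.19 CPM in vehicle lesions and 0.810 ± 0.290 CPM in uninjured cord. It had the largest log2 changes of the list against uninjured cord, 3.04 (adjusted p = 0.000105) in SCI Tam and 3.83 (adjusted p = 1.12e-05) in SCI Veh. The growth cone gene Gap43 passed no test, with means of 148 ± 18.4 CPM in tamoxifen lesions, 145 ± 8.90 CPM in vehicle lesions and 151 ± 13.4 CPM in uninjured cord.

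Cytoplasmic effectors, which carry the signal to the cytoskeleton, were 43 genes, of which 16 were higher and 16 lower in vehicle lesions and 13 higher and 17 lower in tamoxifen lesions, each against uninjured cord. Between the lesions, Chn1, a Rac regulator downstream of Epha4, was higher in SCI Tam at a log2 change of 0.35 (adjusted p = 0.0367). Lower there were Mical2 at -0.56 (adjusted p = 0.00332), Dpysl3 at -0.43 (adjusted p = 0.00813), Fes at -0.81 (adjusted p = 0.0203), Mical1 at -0.49 (adjusted p = 0.0203) and Vav2 at -0.33 (adjusted p = 0.0401). Mical1 and Mical2 are oxidases of actin downstream of plexins, Dpysl3 belongs to the collapsin response mediators, Fes is a kinase at the plexin A receptor and Vav2 acts below Eph receptors. These genes of the 3 lists are subject to the same limits of SCI Tam against SCI Veh as the members.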

How the data were processed

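Gene expression was read from 12 libraries of mouse spinal cord, 3 groups of 4. Part of the mouse genotype is not reported here. The authors deposited raw counts per Ensembl gene and FPKM values, in 2 tables. Per the submitters' processing notes, TopHat, Picard, Cufflinks and HTSeq were used on mm9; which tool did which step, their versions, library strand and multiply mapped reads are not stated there, so overlapping or closely similar genes may share counts. The FPKM table named 37818 of the identifiers, and the GENCODE reference another 99.

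Tests on counts used edgeR 4.0.16 under R 4.3.3 (filterByExpr with minimum count 10 and minimum total 15, TMM, 1 quasi-likelihood fit of 3 group means with 9 residual degrees of freedom, two-sided, Benjamini-Hochberg over 16473 genes, threshold 0.05), and the fit was checked on simulated data. FPKM was used for levels between genes and, with limma 3.58.1 and 1 or 0.1 added, as an alternative. Alternatives also included DESeq2 1.42.0, limma-voom, other scalings and filters, terms for sex, sample name series and muscle score (mean log2 of CPM plus 0.5), and each library left out. A gene's ratio of counts to FPKM was called shifted where libraries 513, 549 and 564 stood apart from the other 9. Their mean log2 ratio also had to differ from that of the other 9 by more than 0.5. The members, the lists and the rule for naming genes (up to 3 per family, direction and comparison with the smallest p, and 12 chosen members) were set with earlier results of these data known.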

Additional observations from a re-analysis of the deposited data

Results flagged for a closer look

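In 180 groups of 4 libraries (60 members in 3 groups), 9 had a library whose gap to the nearest other exceeded Dixon's critical share of the group's range, and chance alone gives about 1 in 20 such groups. Tamoxifen library 564 was the lowest for Plxna3 at 31.5 CPM (the others 37.4 to 38.5 CPM) and for Sema4g at 29.9 CPM (34.0 to 34.8 CPM). Tamoxifen library 549 was the lowest for Slit2 at 36.9 CPM (43.4 to 44.1 CPM), and tamoxifen library 452 the highest for Robo1 at 77.8 CPM (66.9 to 68.6 CPM). Among vehicle libraries, 457 was the highest for Ephb3 at 20.9 CPM (11.6 to 13.1 CPM) and 428 the lowest for Efna4 at 0.864 CPM (1.65 to 1.80 CPM). In uninjured cord, library 385 was the lowest for Ephb6 at 71.3 CPM (79.5 to 80.9 CPM) and the highest for Slit2 at 80.2 CPM (69.5 to 70.4 CPM), and library 467 was the lowest for Sema3g at 13.3 CPM (16.1 to 16.6 CPM).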

How the results depend on the processing

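Over 96 gene results, 2300 of 2784 alternative values kept their sign and their side of the threshold, 385 lost the call, 44 gained one and 55 changed sign. No member called higher or lower reversed its sign under the alternatives run. Efna3, the 1 member higher in SCI Tam against SCI Veh, was not called, and 0 others were called higher, with library totals, limma-voom, either FPKM fit, the 8 libraries compared, the terms for series or sex, the muscle covariate, a fold of at least 2, or either omission of several libraries, while 0 to 4 of all members tested were higher there at an unadjusted p under 0.05 in these fits. Where 10 members were lower there, 5 were lower in either FPKM fit (4 of the 10, and Plxna3), 7 with the sex term (6 of the 10, and Nrp1), 6 with 8 libraries, 1 with the muscle covariate, 1 at a fold of at least 2, and 0 with the series term or either omission. Over all genes, the FPKM fits called 679 higher and 839 lower there with 1 added, and 666 and 772 with 0.1 added. Higher and lower genes numbered 402 and 587 with the sex term and 647 and 866 with 8 libraries. With the muscle covariate they numbered 3 and 51, and at a fold of at least 2 they numbered 240 and 375. In SCI Veh against uninjured cord, a fold of at least 2 left 4 members higher and 2 lower, beside 1681 and 371 of all genes. For SCI Tam against uninjured cord that fold left 1370 and 303 of all genes. Omitting the 5 libraries high in muscle transcripts left 1 vehicle library, and the calls of members there were lost in edgeR, like most calls over all genes. In SCI Tam against uninjured cord, 2 higher and 4 lower were called with the series term, 0 and 2 at a fold of at least 2, and 3 and 5 without libraries 513, 549 and 564. DESeq2 with the series term called 0 higher and 2 lower in SCI Tam against SCI Veh, beside 80 and 253 of all genes. In SCI Tam against uninjured cord it called 9 lower, beside 1021 of all genes. Without libraries 513, 549 and 564 it called 0, 2 and 11, and without the 5 libraries 0, 0 and 16, with 4 higher and 0 lower in SCI Veh against uninjured cord. The omissions of several libraries and these DESeq2 fits were chosen after seeing the data. Leaving out each library in turn gave 0 to 1 higher and 4 (without 513) to 14 (without 452) lower in SCI Tam against SCI Veh, with 6 without 564. Of all genes, 625 were lower there without 513, 2279 without 452 and 676 without 564, beside 1372 with all libraries. For members the ranges were 12 to 18 higher and 18 to 25 lower in SCI Veh against uninjured cord, and 5 to 7 and 23 to 30 in SCI Tam against uninjured cord. Over all genes they were 3589 to 4505 and 3595 to 4482 in SCI Veh, and 3674 to 4697 and 3026 to 4198 in SCI Tam. Among log2 changes of chosen members that were not called, 55 alternative values had the other sign, and none of these was called. Ephb2 in SCI Veh against uninjured cord (-0.036) was -0.12 to 0.034 over single omissions. Sema3a in SCI Veh against uninjured cord (0.075) was -0.24 and -0.28 in the FPKM fits, -0.16 and -0.15 without the 5 libraries (edgeR, DESeq2) and -0.009 to 0.13 over single omissions. Efnb3 in SCI Tam against SCI Veh (0.084) was -0.012 with the muscle covariate and -0.030 and -0.042 without the 5 libraries (edgeR, DESeq2). Epha4 in SCI Tam against SCI Veh (-0.008) was 0.003 with no filter, 0.033 and 0.037 in the FPKM fits, 0.063 and 0.061 with the series term (edgeR, DESeq2), 0.072 with the muscle covariate, 0.064 and 0.068 without the 3 libraries (edgeR, DESeq2), 0.021 and 0.008 without the 5 libraries (edgeR, DESeq2) and -0.036 to 0.050 over single omissions. Ephb2 in SCI Tam against SCI Veh (-0.24) was 0.089 and 0.076 without the 5 libraries (edgeR, DESeq2). Sema3a in SCI Tam against SCI Veh (0.059) was -0.011 and -0.015 in the FPKM fits, -0.19 and -0.20 with the series term (edgeR, DESeq2), -0.010 with the sex term, -0.19 and -0.19 without the 3 libraries (edgeR, DESeq2) and -0.052 to 0.13 over single omissions. Sema3c in SCI Tam against SCI Veh (-0.17) was 0.086 and 0.073 without the 5 libraries (edgeR, DESeq2). Sema7a in SCI Tam against SCI Veh (0.038) was -0.008 with the sex term and -0.006 to 0.080 over single omissions. Efnb3 in SCI Tam against uninjured cord (-0.13) was 0.085 and 0.074 with the series term (edgeR, DESeq2) and 0.084 and 0.082 without the 3 libraries (edgeR, DESeq2). Nrp2 in SCI Tam against uninjured cord (-0.016) was 0.028 with the muscle covariate, 0.030 and 0.030 without the 5 libraries (edgeR, DESeq2) and -0.10 to 0.043 over single omissions. Sema3a in SCI Tam against uninjured cord (0.13) was -0.26 and -0.30 in the FPKM fits, -0.12 and -0.13 with the series term (edgeR, DESeq2) and -0.12 and -0.12 without the 3 libraries (edgeR, DESeq2). Sema4d in SCI Tam against uninjured cord (0.12) was -0.015 and -0.014 without the 5 libraries (edgeR, DESeq2). The cause of these differences was not tested. No paired analysis was possible because the groups share no mouse number. Counting error limits Efna4, Robo3 and Epha1 most, which lie near 1 CPM.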
